A study of Mus musculus with 10 samples.

Results

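The genes described here are a set of 35 mouse genes of the interferon response and of antigen presentation by major histocompatibility complex (MHC) class I molecules, measured in the hypothalamus of tumour-bearing and sham-injected mice. A gene was taken as measured where the platform annotation paired a probe set with that gene alone, and the brightest such probe set stood for it. Under this rule 33 of the 35 genes were measured, out of 18820 genes on the array with such a probe set. Ifi44 had no such probe set, and the probe set of H2-D1 was shared with H2-K1 and LOC547349. All mice were male CDF1 animals (BALB/c × DBA/2) aged 10 to 11 weeks. Tumours were grown from 1000000 C26 cells, of a colon adenocarcinoma, injected in 0.2 ml of buffered salt solution under the skin of the flank, and control mice were given 0.2 ml of the solution without cells. The hypothalamus was taken on day 20, and its RNA was hybridised to whole-transcript Affymetrix arrays. There were 5 tumour-bearing and 3 control mice on arrays of their own, 1 array of RNA pooled from 5 tumour-bearing mice and 1 array of RNA pooled from 4 control mice. C26 is a transplanted mouse tumour line used to study cancer cachexia, and whether the pooled RNA came from the animals arrayed singly is not stated.

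Type I interferons bind the receptor made of Ifnar1 and Ifnar2 and act through the kinases Jak1 and Tyk2. A transcription factor complex that contains STAT2 and IRF9 then binds the interferon-stimulated response element (ISRE) in the promoters of antiviral genes. Interferon gamma acts through another element (GAS) and through IRF1, and both types of interferon raise the genes that cut, transport and present peptides on MHC class I. In the brain, microglia, endothelium, astrocytes and neurons can all respond, and the antiviral genes are widely used as a readout of interferon exposure.

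The promoters of 26 of the 35 genes were matched by symbol in RefSeq (GRCm38.p6), each running from 250 bases before to 50 bases after the gene's start. They were searched on both strands for the ISRE core (GAAA, any 2 bases, GAAA) and for the GAS pattern (TTC, any 3 bases, GAA). Overlapping matches were counted apart, and the patterns were not kept from overlapping each other. The ISRE core occurred in 14 of the 26 genes (53.8%), against 3.99% of all 27025 genes and 3.44% of all 32851 promoters of the same length. The GAS pattern occurred in 5 of the 26 (19.2%), against 9.55% of all genes and 8.3% of all promoters. A match is a description of the letters and not a shown binding site. The 4 promoters below belong to the gene whose groups did not overlap (Stat2), the gene furthest above 0 (Rsad2), the tested gene furthest below 0 (Ifit1) and the light chain of MHC class I (B2m). Capitals mark matches to the ISRE core on either strand, written 5′ to 3′ on the strand of the gene. Stat2 lies at chr10:128270248-128270547 (plus strand), Rsad2 at chr12:26456403-26456702 (minus strand), Ifit1 at chr19:34640639-34640938 (plus strand) and B2m at chr2:122147437-122147736 (plus strand). Counted from the gene's start, the matches begin at -222 in Stat2, at -120 in Rsad2, at -104 and -85 in Ifit1 and at -139 in B2m.
Stat2: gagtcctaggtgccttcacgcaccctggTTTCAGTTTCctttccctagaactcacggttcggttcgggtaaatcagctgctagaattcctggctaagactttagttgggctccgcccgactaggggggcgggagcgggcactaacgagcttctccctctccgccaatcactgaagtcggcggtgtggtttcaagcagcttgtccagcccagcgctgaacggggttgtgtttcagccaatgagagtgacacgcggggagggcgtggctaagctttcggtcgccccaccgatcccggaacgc
Rsad2: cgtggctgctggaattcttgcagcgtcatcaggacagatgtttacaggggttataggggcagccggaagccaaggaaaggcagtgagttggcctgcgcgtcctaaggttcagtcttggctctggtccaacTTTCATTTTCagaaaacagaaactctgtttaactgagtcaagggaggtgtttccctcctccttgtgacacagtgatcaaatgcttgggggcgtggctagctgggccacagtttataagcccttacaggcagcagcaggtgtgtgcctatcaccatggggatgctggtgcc
Ifit1: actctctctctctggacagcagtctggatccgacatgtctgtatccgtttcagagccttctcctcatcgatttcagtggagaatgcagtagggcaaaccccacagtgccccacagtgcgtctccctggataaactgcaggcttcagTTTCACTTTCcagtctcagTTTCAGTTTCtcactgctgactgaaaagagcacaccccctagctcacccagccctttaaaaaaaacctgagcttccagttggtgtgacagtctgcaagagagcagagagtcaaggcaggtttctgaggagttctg
B2m: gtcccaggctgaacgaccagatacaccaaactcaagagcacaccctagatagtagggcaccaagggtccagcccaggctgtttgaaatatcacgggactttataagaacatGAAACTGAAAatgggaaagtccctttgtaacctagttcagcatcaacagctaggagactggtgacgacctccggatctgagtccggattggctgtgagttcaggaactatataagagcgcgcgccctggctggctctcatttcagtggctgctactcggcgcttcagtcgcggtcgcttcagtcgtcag

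Values are log2 RMA levels as deposited. Array medians were 5.3 to 5.32 in the 8 single animals, 5.28 in the tumour-bearing pool and 5.27 in the control pool, and correlations between single arrays over the tested probe sets were 0.98 to 0.989. A probe set entered the test if its level exceeded 4.32, the log2 of 20, in 3 or more of the 8 single animals. All 12 hypothalamic markers passed this filter, 10 of them above 0 in tumour-bearing mice (median 0.21), and Avp, the vasopressin gene, had the smallest p (0.50 ± 0.07 SE, limma adjusted p = 0.0597). Some arrays stood apart in their levels of tissue markers. Gh, the growth hormone gene of the anterior pituitary, was 10.45 and 10.48 in tumour-bearing mice 3 and 4 and 9.82 in the tumour-bearing pool, against 4.76 to 5.51 in the other tumour-bearing mice, 4.21 to 4.45 in controls and 4.37 in the control pool. Markers of midbrain and raphe were lower in tumour-bearing mice, with 8 of 8 below 0 and a median of -0.82 (Slc18a2, the vesicular monoamine transporter, at -0.72 ± 0.16 SE), as were oligodendrocyte markers, with 7 of 7 below 0 and a median of -0.45 (Ugt8a, a myelin lipid enzyme, at -0.81 ± 0.19 SE). Meningeal markers were below 0 in 6 of 6 with a median of -0.28 (Slc6a13 at -0.42 ± 0.19 SE). Astrocyte markers had 2 above and 5 below 0 with a median of -0.02 (Aqp4 at -0.51 ± 0.11 SE, Slc1a3 at 0.13 ± 0.04 SE), and choroid plexus markers 3 above and 3 below with a median of 0.01 (Otx2 at -0.44 ± 0.20 SE, Ttr at 0.34 ± 0.41 SE). Control 1 also differed from the other controls in some genes. The raphe gene Slc6a4 was 3.78 in it and 6.45 and 5.93 in controls 2 and 3, against 3.56 to 4.34 in tumour-bearing mice. The pituitary gene Cga was 7.71 in control 1 and 6.29 and 6.10 in controls 2 and 3, against 6.66 to 7.88 in tumour-bearing mice. Its level was 7.65 in the tumour-bearing pool and 7.83 in the control pool. The other pituitary markers did not share this: for Gh (4.24), Prl (3.27) and Lhb (4.98) control 1 lay between controls 2 and 3. For Fshb (3.39) it was highest of the controls, by little, and for Tshb (2.54) and Ghrhr (4.32) lowest. No marker of any list passed the threshold. Their part in the results below was not tested. In bulk tissue, fewer cells of a type and less RNA per cell cannot be told apart.

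No interferon or antigen presentation gene passed the test. Of the 33 measured genes 26 were tested, and 0 rose and 0 fell between tumour-bearing and control mice at a limma adjusted p under 0.05. Over all 12978 tested genes 0.0771% were called higher and 0% lower. At an unadjusted p under 0.05 there was 1 lower gene, Stat2, and 0 higher ones, while the background over all tested genes was 6.51% lower and 3.78% higher. The adjusted p of the 26 genes ran from 0.394 to 0.984. All tumour-bearing and all control values of 21 of the 26 lay above the filter level. None of the 26 exceeded it in 1 group alone. Parp14 and Rtp4 exceeded it in all 3 controls but in only 1 and 2 tumour-bearing mice. Their control arrays were thus enough to pass them, and their tumour-bearing arrays were not. A further 7 measured genes (Irf7, Dhx58, Zbp1, Isg15, Oas1a, Oas2 and Psmb8) were too dim to test.

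The differences were small. Of the 26 tested genes 18 differed by at most 0.15 on the log2 scale in either direction, and only Rsad2 by more than 0.3. The standard error of a difference had a median of 0.13. For 25 of the 26 genes the 95% interval of the difference lay inside a 2-fold change either way, and for 18 it lay inside 0.5 on the log2 scale. The exception to the 2-fold bound was Rsad2. These intervals are on the RMA scale, which compresses folds.

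The signs leaned downward without any gene passing. Among the 26 tested genes 19 were below 0 (73.1%), against 54.5% of all tested genes. The 19 include Parp14 and Rtp4, whose control arrays carried them through the filter. The median difference was -0.05 over the 33 measured genes and -0.10 over the 26 tested, against -0.01 over all tested genes. This median depended on single animals. Over the measured genes leaving out 1 control gave -0.0266 (control 1), -0.118 (control 2) or -0.0935 (control 3). Leaving out tumour-bearing mouse 2 or 3 gave -0.101 or -0.103. The sign count did too: 23 of the 33 measured genes were below 0, and 19 to 24 with 1 animal left out, fewest without control 1. The pools, with no replicate, gave 20 of the 26 below 0 (background 52.7%) and a median of -0.14 against -0.01 over all tested genes. Past 1.2-fold between pools there were 6 lower genes (Ifit1, Oasl2, Rtp4, Xaf1, B2m and Cxcl10; background 5.02%) and 1 higher, Rsad2 (background 4.48%). In 16 of the 26 both the animals and the pools were below 0, against 34.0% of all tested genes.

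**Figure D1:**
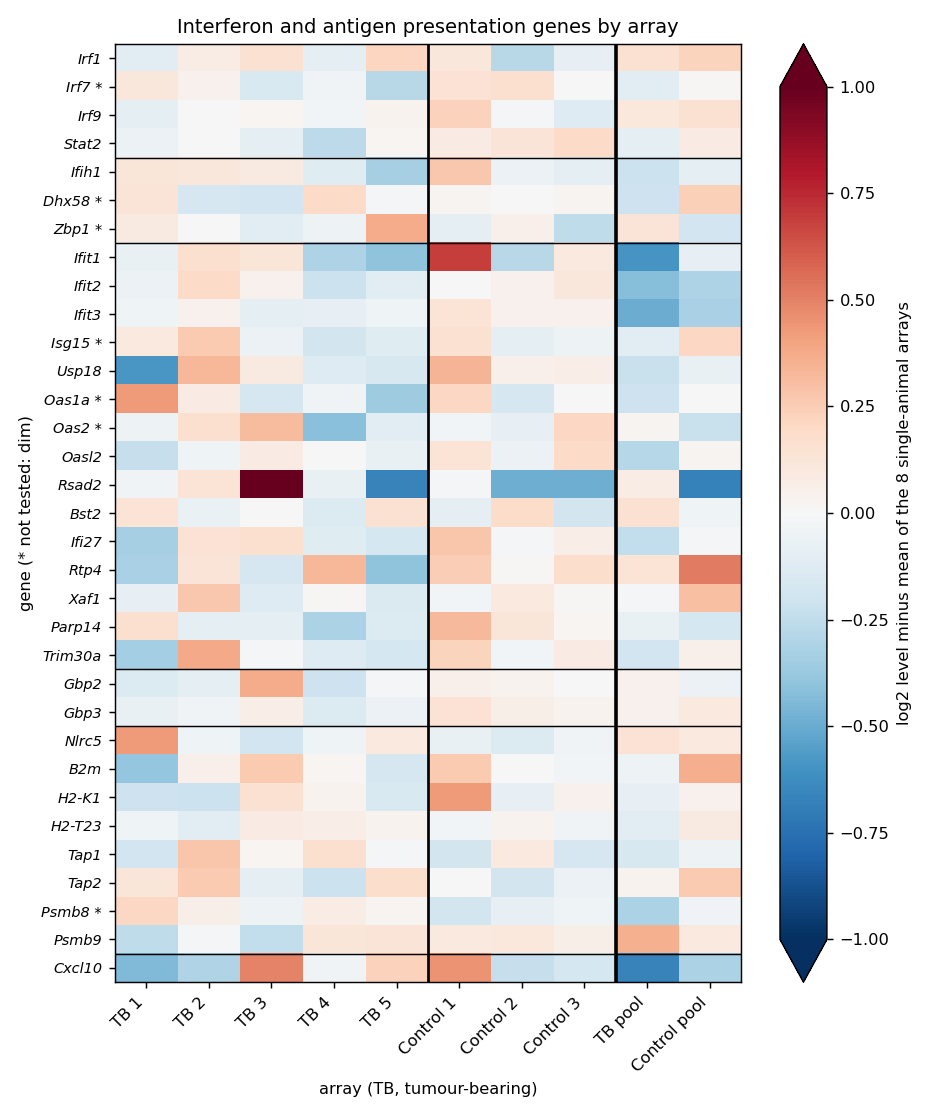
Levels of the 33 measured genes (down) on the 5 tumour-bearing and 3 control single arrays and the tumour-bearing and control pools (across), as log2 level minus the mean of the 8 single arrays, on a colour scale that ends at 1 either way. Horizontal lines part transcription factors, sensors, antiviral genes, guanylate-binding proteins, antigen presentation and Cxcl10, and an asterisk marks the 7 dim genes. Rsad2 in tumour-bearing mouse 3 (6.95) is the darkest cell.

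**Figure D2:**
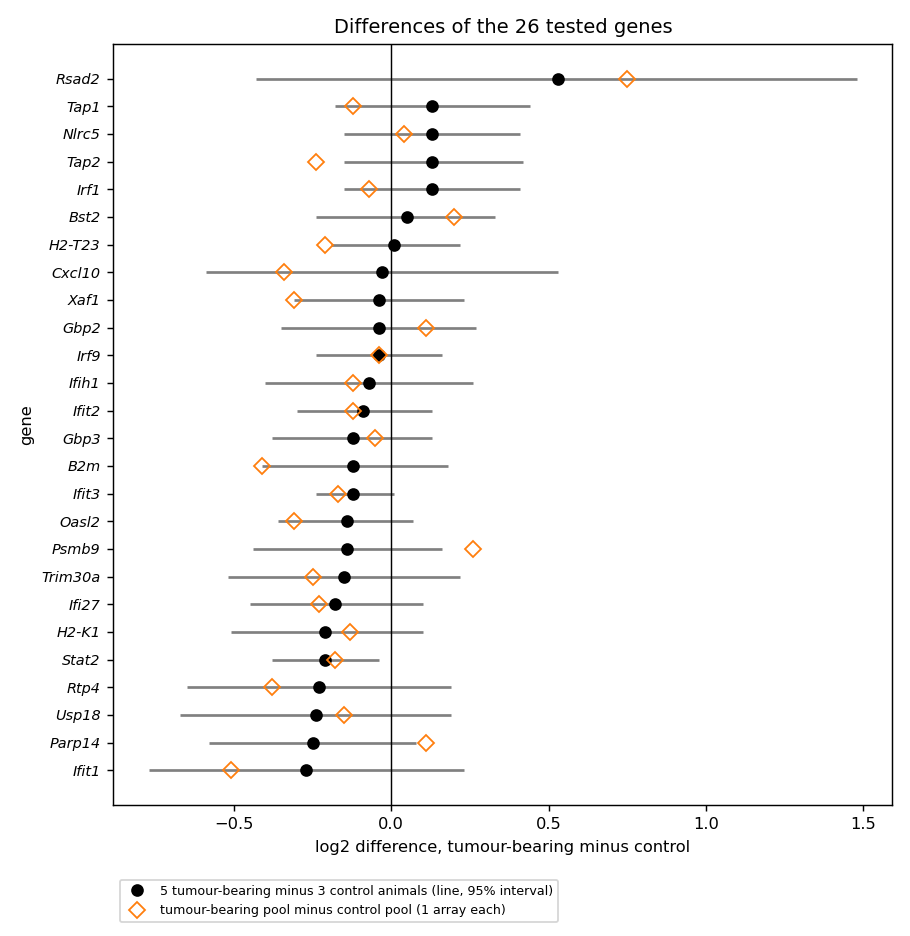
Log2 difference of tumour-bearing minus control mice for the 26 tested genes, as a point with its 95% interval from limma (5 against 3 animals), and the difference between the tumour-bearing and control pools as an open diamond. The interval of Stat2 (-0.38 to -0.04) alone leaves out 0, and that of Rsad2 (-0.43 to 1.48) is the widest.

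Among the transcription factors, Stat2, the partner of IRF9 in the type I response, had the smallest p of the set. On its probe set 10367224 it read 6.51, 6.57, 6.48, 6.31 and 6.59 in tumour-bearing mice, against 6.65, 6.70 and 6.76 in controls. All 5 tumour-bearing values lay below all 3 controls, the only tested gene of the set of which this was true, while 5.19% of all tested genes had such a pattern and 3.11% the opposite one, which no gene of the set had. The difference was -0.21 ± 0.08 SE (0.863-fold, 95% interval -0.38 to -0.04, limma adjusted p = 0.394), and the pools differed by -0.18, at 6.47 in the tumour-bearing pool and 6.65 in the control pool. Across all 21 alternatives the difference of Stat2 was -0.24 to -0.15 with limma adjusted p of 0.257 to 0.854. Irf9, the DNA-binding partner of STAT2, averaged 6.25 ± 0.05 (SD, n = 5) in tumour-bearing mice and 6.28 ± 0.18 (SD, n = 3) in controls, a difference of -0.04 ± 0.09 SE. Irf1, the factor induced by interferon gamma, differed by 0.13 ± 0.13 SE, with 5.07 to 5.39 in tumour-bearing mice and 4.90 to 5.29 in controls, and by -0.07 between pools. Without control 1 its difference was 0.23 and without control 2 it was 0.0329. Irf7, which amplifies interferon production, lay below the filter level on all 8 single arrays, at 3.65 ± 0.15 in tumour-bearing mice (SD, n = 5) and 3.82 ± 0.09 in controls (SD, n = 3).

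The cytosolic sensors were low. Ifih1, which encodes the RNA sensor MDA5, averaged 4.75 ± 0.19 in tumour-bearing mice (SD, n = 5) and 4.82 ± 0.20 in controls (SD, n = 3), with overlapping groups. Dhx58, which encodes the related helicase LGP2, exceeded the filter level in 1 tumour-bearing mouse and 0 controls. Zbp1, a sensor of Z-form nucleic acids, did so in 0 mice of either group.

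Antiviral effectors formed the largest role. Of 15 measured genes 12 were below 0 in tumour-bearing mice and 3 above (Rsad2, Bst2 and Isg15, the last at 0.00), with a median of -0.12. Of the 12 tested 10 were below 0, Parp14 and Rtp4 among them, against 54.5% of all tested genes. Between pools 11 of the 15 were below 0 and 4 above. The IFIT proteins bind foreign RNA. Ifit3 read 6.97, 7.06, 6.92, 6.93 and 6.97 in tumour-bearing mice, against 7.15, 7.06 and 7.06 in controls. Tumour-bearing mouse 2 thus reached the level of controls 2 and 3, and the other 4 lay below every control. The difference of -0.12 ± 0.06 SE had a limma adjusted p of 0.499. Its neighbour Ifit2 differed by -0.09 ± 0.10 SE. Ifit1 read 4.88, 5.11, 5.07, 4.64 and 4.55 in tumour-bearing mice, against 5.64, 4.67 and 5.05 in controls. The high value of control 1 set its difference of -0.27 ± 0.22 SE, which was -0.00603 without that animal and -0.49 without control 2. In the pools Ifit1 was 4.36 in the tumour-bearing pool and 4.87 in the control pool.

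Usp18, the protease that removes ISG15 from proteins and damps the receptor, read 4.26, 5.17, 4.93, 4.71 and 4.68 in tumour-bearing mice, against 5.18, 4.89 and 4.91 in controls. The groups overlapped, with tumour-bearing mouse 1 lowest. The difference of -0.24 ± 0.19 SE was -0.12 without that mouse and -0.15 without control 1. The same mouse was also the lowest of the 8 for Ifi27, Oasl2, Trim30a and B2m. Oasl2, of the oligoadenylate synthetase-like family, differed by -0.14 ± 0.10 SE, Ifi27 by -0.18 ± 0.12 SE and Trim30a, a TRIM-family regulator, by -0.15 ± 0.16 SE. Parp14, an ADP-ribosyltransferase, differed by -0.25 ± 0.15 SE. It lay above the filter level in 1 tumour-bearing mouse and in all 3 controls, and with values raised to that level its difference was -0.12. Rtp4 was similar, at -0.23 ± 0.19 SE as measured and -0.07 with dim values raised. Xaf1 (-0.04 ± 0.12 SE) and Bst2, the tetherin gene (0.05 ± 0.13 SE), were close to 0. Isg15, Oas1a and Oas2 lay below the filter level on all 8 single arrays, where Isg15 averaged 3.57 ± 0.18 in tumour-bearing mice (SD, n = 5) and 3.57 ± 0.13 in controls (SD, n = 3).

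**Figure D3:**
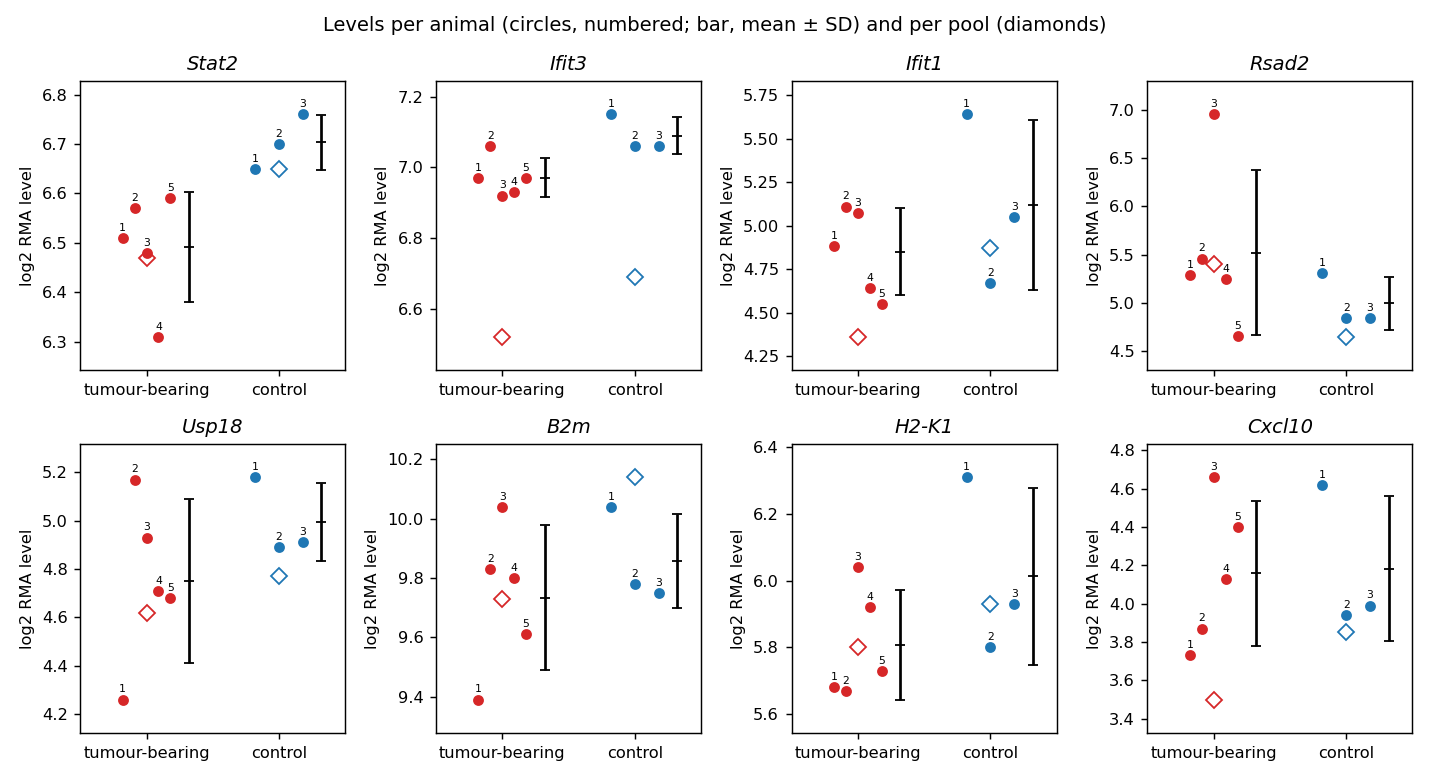
Log2 RMA level of 8 genes in 5 tumour-bearing (left, red) and 3 control mice (right, blue), numbered by animal, with mean and SD as bars and the pools as diamonds. Each vertical axis has its own range. Only for Stat2 do the groups of single animals not overlap.

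Rsad2, which encodes viperin, was furthest above 0, and its difference rested on 1 animal. On its probe set 10399710 it read 5.29, 5.46, 6.95, 5.25 and 4.66 in tumour-bearing mice, against 5.31, 4.84 and 4.84 in controls. Tumour-bearing mouse 3 was highest and mouse 5 lowest of all 8, so the groups overlapped. The difference was 0.53 ± 0.42 SE (1.44-fold, 95% interval -0.43 to 1.48, limma adjusted p = 0.718), and it was 0.17 without mouse 3. The pools differed by 0.75, at 5.40 in the tumour-bearing pool and 4.65 in the control pool. Mouse 3 was highest of the 8 for 6 of the 33 measured genes (18.2%, against 11.4% of all tested genes), among them Gbp2, Cxcl10 and H2-T23, and lowest for 3 (9.09%, against 11.9%).

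Other genes had the same high value in mouse 3. Isg20, an interferon-induced exonuclease, read 5.55, 5.51, 6.80, 5.80 and 5.54 in tumour-bearing mice, against 5.64, 5.27 and 5.07 in controls. Ube2l6, the conjugating enzyme for ISG15, read 5.53, 5.75, 7.23, 5.78 and 5.46 in tumour-bearing mice, against 5.78, 5.36 and 5.42 in controls. Both were picked out here after their values were seen, and neither passed (limma adjusted p = 0.580 and 0.730). Alas2, the heme synthesis enzyme of red blood cell precursors, read 6.02, 5.89, 7.77, 6.43 and 5.62 in tumour-bearing mice, against 5.21, 5.02 and 4.59 in controls, and it too was highest in mouse 3. Slc4a1, the anion exchanger of red blood cells, was 5.96 in mouse 3, 4.02 to 4.43 in the other tumour-bearing mice and 3.62 to 4.03 in controls, so it passed the filter through tumour-bearing mice alone. Its mean difference was 0.82 as measured and 0.35 with values raised to the filter level, and it is given as values alone. Alas2 lay above the filter level in all 8 animals. Its groups did not overlap, a pattern that 3.11% of all tested genes had in this direction. The part of red blood cell RNA in the Rsad2 values was not tested.

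**Figure D4:**
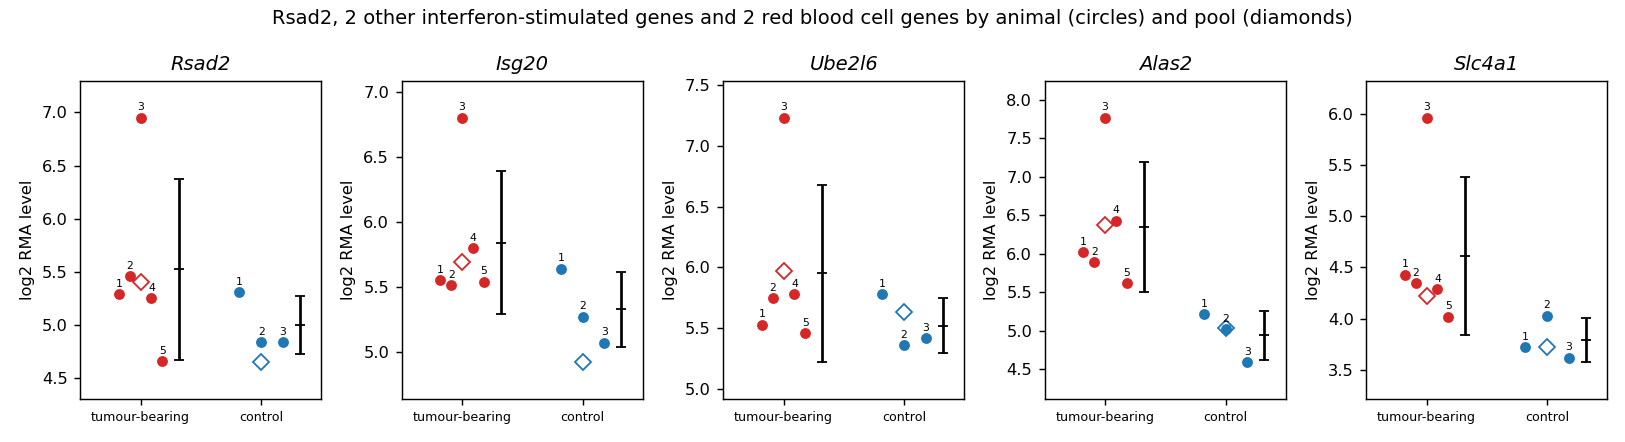
Log2 RMA level of Rsad2, the interferon-stimulated genes Isg20 and Ube2l6 and the red blood cell genes Alas2 and Slc4a1 in 5 tumour-bearing (left) and 3 control mice (right), numbered by animal, with mean and SD as bars and the pools as diamonds. Tumour-bearing mouse 3 is the highest point in every panel, from 5.96 for Slc4a1 to 7.77 for Alas2.

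The guanylate-binding proteins are GTPases induced mainly by interferon gamma. Gbp2 differed by -0.04 ± 0.14 SE, with 4 of 5 tumour-bearing mice below every control and mouse 3, at 5.37, above them all. Gbp3 differed by -0.12 ± 0.11 SE, at 4.34 ± 0.07 in tumour-bearing mice (SD, n = 5) and 4.46 ± 0.06 in controls (SD, n = 3), both near the filter level. Cxcl10, the chemokine that draws activated T cells, read 3.73, 3.87, 4.66, 4.13 and 4.40 in tumour-bearing mice, against 4.62, 3.94 and 3.99 in controls. It exceeded the filter level in 2 tumour-bearing mice and 1 control, and its mean difference was -0.03 ± 0.25 SE.

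Antigen presentation genes had members on both sides of 0. Of 8 measured genes 5 were above 0 and 3 below, with a median of 0.07. Over the 7 tested, which leave out the dim Psmb8, 4 were above and 3 below, with a median of 0.01. The median of 0.07 became 0.0313 without tumour-bearing mouse 1 and 0.00346 with array weights. With the mean of probe sets it was 0.00927, and with the pools as samples 0.00536. Between pools 2 of the 8 were above and 6 below, with a median of -0.17. B2m, the light chain of every MHC class I molecule, read 9.39, 9.83, 10.04, 9.80 and 9.61 in tumour-bearing mice, against 10.04, 9.78 and 9.75 in controls. The groups overlapped. The difference of -0.12 ± 0.13 SE was -0.0266 without control 1, -0.0331 without tumour-bearing mouse 1 and -0.20 without mouse 3, and the pools were further apart, at 9.73 in the tumour-bearing pool and 10.14 in the control pool. H2-K1, a classical heavy chain, read 5.68, 5.67, 6.04, 5.92 and 5.73 in tumour-bearing mice, against 6.31, 5.80 and 5.93 in controls. Control 1 was again highest, and the difference of -0.21 ± 0.14 SE was -0.0563 without it. The probe set shared by H2-D1, H2-K1 and LOC547349, which the rule leaves out, averaged 7.11 ± 0.16 in tumour-bearing mice (SD, n = 5) and 7.17 ± 0.13 in controls (SD, n = 3). The nonclassical gene H2-T23 differed by 0.01 ± 0.09 SE. BALB/c and DBA/2 mice carry another MHC haplotype than the C57BL/6 reference strain, and how well the heavy chain probes match CDF1 transcripts was not examined.

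Psmb9, Tap1, Psmb8 and Tap2 follow each other in this order in the RefSeq annotation and encode immunoproteasome subunits and the subunits of the peptide transporter. None of the 4 passed. Tap1 differed by 0.13 ± 0.14 SE and Tap2 by 0.13 ± 0.13 SE, with tumour-bearing mouse 2 highest of the 8 animals for both, whereas the pools differed by -0.12 for Tap1 and -0.24 for Tap2. Psmb9 differed by -0.14 ± 0.13 SE in animals and by 0.26 between pools. Psmb8 lay below the filter level on all single arrays, at 3.90 ± 0.10 in tumour-bearing mice (SD, n = 5) and 3.73 ± 0.07 in controls (SD, n = 3), a difference of 0.17, and its pools differed by -0.27. Tap1, Tap2 and Psmb8 thus had the same sign as each other in animals and the opposite one in pools, and Psmb9 the reverse. Nlrc5, the transactivator of class I genes, had 19 probe sets. The brightest differed by 0.13 ± 0.12 SE. Leaving out tumour-bearing mouse 1 gave 0.0349. The gene's probe sets ran from -0.34 to 0.19 with 12 above and 7 below 0, and their mean differed by 0.00455.

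Splitting the measured genes by the ISRE core gave medians close to each other. The 14 genes with a match had a median difference of -0.06 and a range of -0.27 to 0.53. The 10 genes whose promoters held no match had a median of -0.07 and a range of -0.21 to 0.17. A gene without a match to this strict core may still have such an element elsewhere or in another form. The split therefore does not part genes by whether they use an ISRE.

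The position of each animal was looked at over the 33 measured genes. Control 1 was the highest of the 8 animals for 9 of them (27.3%), against 18.0% of all tested genes. The mean centred level of the set was 0.13 in control 1, -0.03 in control 2 and -0.01 in control 3, which lie inside the range of tumour-bearing mice, -0.08 to 0.07, in all but control 1. Tumour-bearing mice 1 and 4 were each the lowest of the 8 for 8 genes (24.2% each), against 14.2% and 11.7% of all tested genes, and mouse 5 for 7 (21.2%), against 16.1%. Tumour-bearing mice 2 and 3 went the other way: each was the highest of the 8 for 6 genes (18.2% each), against 8.44% and 11.4% of all tested genes.

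The remaining pathway was described from lists of 7 kinds. No listed gene passed the threshold. Interferon genes themselves were mostly dim: 14 of 21 were measured and 2 tested, Ifna14 (0.15 ± 0.20 SE) and Ifnl2 (-0.11 ± 0.17 SE), while Ifnb1 averaged 3.09 ± 0.21 in tumour-bearing mice (SD, n = 5) and 3.05 ± 0.10 in controls (SD, n = 3). Receptors and kinases were well measured, with 1 above and 7 below 0 among 8 tested, a median of -0.05 and the smallest p for Il10rb (-0.15 ± 0.09 SE) and Ifngr2 (-0.07 ± 0.05 SE). Among 13 tested genes of interferon induction 7 were above and 6 below 0. Tlr3, the endosomal receptor for double-stranded RNA, read 5.90 to 6.14 in tumour-bearing mice and 6.26 to 6.49 in controls. Its groups did not overlap (-0.34 ± 0.09 SE, limma adjusted p = 0.270), and it differed by -0.30 between pools. Only 1 of the 13 genes had this pattern, against 5.19% of all tested genes. Myd88, a Toll-like receptor adaptor, differed by 0.14 ± 0.11 SE. Of 8 negative regulators 5 were above and 3 below 0, with Usp25 at -0.17 ± 0.05 SE and Pias1 at 0.10 ± 0.04 SE. The pools gave the opposite sign for both, 0.02 for Usp25 and -0.17 for Pias1.

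Among 33 tested further interferon-stimulated genes 17 were above and 16 below 0, with a median of 0.01. Gbp4, another guanylate-binding protein, read 4.31, 4.12, 4.29, 3.87 and 3.84 in tumour-bearing mice, against 4.72, 4.90 and 4.49 in controls. All tumour-bearing values were below all controls and below the filter level of 4.32, so Gbp4 passed the filter through the controls alone. Its values are therefore given without a p. It is still counted among the 33 tested and the 16 below 0. The mean difference was -0.62 as measured and -0.38 with values raised to the filter level, and the pools differed by -0.59. Znfx1, an RNA helicase gene, differed by 0.24 ± 0.08 SE and without overlap in the other direction, and also by 0.24 between pools. Groups did not overlap for 3 lower genes of the 33, Gbp4 among them, and for 1 higher, Znfx1. Over all tested genes the shares were 5.19% lower and 3.11% higher. The list of further class I genes had 4 above and 10 below 0 among 14 tested, with a median of -0.02. It was led by Erap1, the peptidase that trims class I peptides (-0.22 ± 0.08 SE), and the chaperone gene Calr (-0.09 ± 0.06 SE). The 14 include H2-Ke6 (-0.02), a gene of the MHC region that encodes an enzyme and not a class I molecule. MHC class II genes, which mark activated microglia and other presenting cells, had 2 above and 4 below 0 among 6 tested, with H2-DMa at -0.09 ± 0.07 SE and H2-Eb1 at -0.10 ± 0.14 SE.

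**Figure D5:**
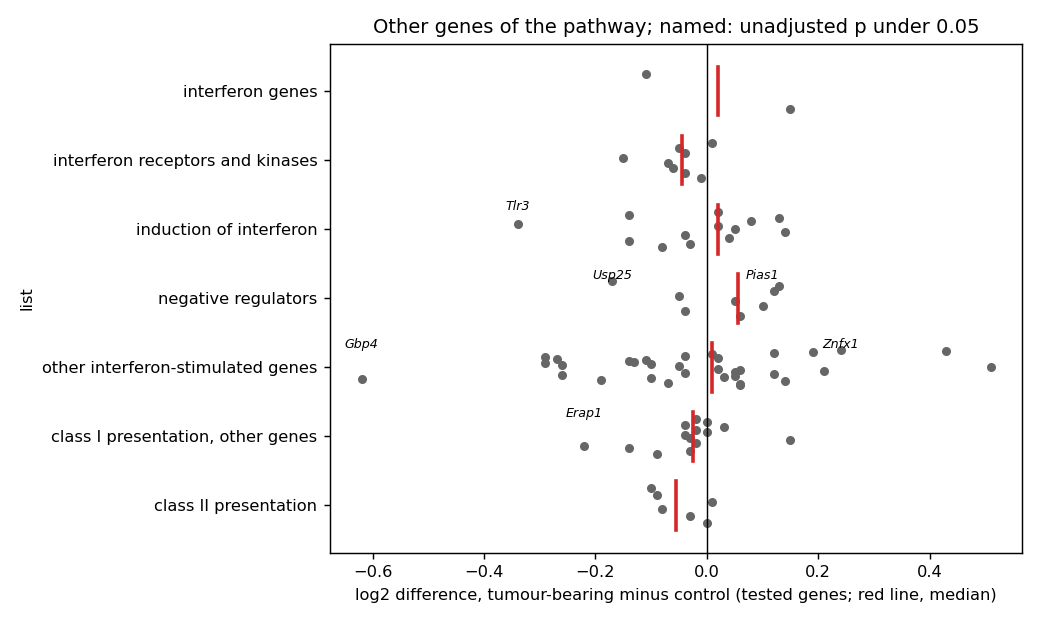
Log2 difference of tumour-bearing minus control mice for each tested gene (dot) of 7 lists of other pathway genes, with the list's median as a red line and names for genes at an unadjusted p under 0.05. Medians lie between -0.05 and 0.05. The lowest dot, Gbp4 (-0.62), is a gene whose tumour-bearing values all lay below the filter level. It passed the filter through the controls alone, so its name in the figure is not a result.

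Cells that commonly carry these transcripts were read from marker lists. Microglia and macrophage markers were below 0 in 11 of 14, with a median of -0.13 and a summed level of 10.1 to 10.33 in tumour-bearing mice and 10.23 to 10.38 in controls. Between pools 7 were above and 7 below 0, with a median of 0.01. None passed, and C1qa (0.26 ± 0.09 SE) had the smallest p. The 11 measured T and NK cell markers and the 3 B cell markers lay below the filter level on all 8 single arrays. Neutrophil and monocyte markers did so in 6 of 7, and Csf3r, the remaining one, differed by 0.14 ± 0.11 SE. All 7 were above 0 in single animals, while between pools 4 were above and 3 below 0. Their summed level was 6.51 to 6.66 in tumour-bearing mice and 6.32 to 6.48 in controls, without overlap. It was 6.61 in the tumour-bearing pool and 6.49 in the control pool. The 6 dim markers enter this sum, and how often sums of other dim genes part the groups was not counted. Of the other dim lists, 3 of 3 B cell markers and 6 of 11 T and NK cell markers were above 0. Endothelial and pericyte markers had 2 above and 7 below 0 and a summed level of 10.33 to 10.55 in tumour-bearing mice and 10.32 to 10.62 in controls, with Rgs5 at -0.39 ± 0.07 SE (limma adjusted p = 0.112). The part of the microglial and vascular values in the downward lean of the set was not tested.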

How the data were processed

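Hypothalamic RNA of 10 arrays was used. The deposited values are log2 levels; the submitters' processing notes name RMA, and the scale was inferred from the values. The version of RMA, its probe set definition and the genome build are not given in the sources used here. Because RMA equalises the distributions of arrays, it hides any change common to all genes. Of 35556 probe sets 21218 were paired with 1 gene and 1881 with several, and updating symbols against RefSeq changed 0. The 22837 probe sets with a level over 20 (log2 4.32) in 3 or more of the 8 single animals were fitted with limma 3.58.1 in R 4.3.3 (intensity trend), tumour-bearing minus control, without the pools, and p was adjusted by Benjamini-Hochberg over all of them at a threshold of 0.05. Counts over all genes use the brightest probe set per gene. The labels call the arrays individual mice, so p-values measure the spread between animals. The number of arrays limits the precision.

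The 35 genes and the lists were chosen with earlier results of these data known. All 35 were to be named, with pathway and marker genes added by rule (past the threshold, or the smallest p in their list). A few were chosen after their values were seen: the markers Slc4a1, Slc1a3, Ttr and Slc6a4, the pituitary markers other than Gh, Ifnb1 and Ifna16 among the interferon genes, and Isg20 and Ube2l6. H2-Ke6 is named for what it encodes. Alternatives varied the filter, variance model, array weights, normalization, replicate block, pools, probe set choice, features tested and animals. In simulated data the fit recovered 65.7% of changes of 0.5 on the log2 scale, 88.1% of changes of 1 and 95.5% of changes of 2. The simulated noise was drawn separately for each array and probe set. It held none of the differences between animals described above. Figures used matplotlib 3.10.9.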

Additional observations from a re-analysis of the deposited data

How the results depend on the processing

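No gene of the set was called under any of the 21 alternatives, and 22 of the 33 measured genes kept the sign of their difference in each alternative that gave them a value (20 of the 21 for dim genes, which array weights left without one). The number of genes called on the whole array was less steady: 10 in the reported fit, 17 with array weights, 18 with the filter at 50, 3 without a filter, 3 without the intensity trend, 68 with the test limited to probe sets of 1 gene, 0 without tumour-bearing mice 3 and 4, and 2 to 55 with 1 animal left out, the last without tumour-bearing mouse 2. With the replicate number as a block the count was 0, and the count of genes of the set lower at an unadjusted p under 0.05 was 0 (background 2.57%). Tumour-bearing mice 4 and 5 have no control of their number and add nothing to that fit. The deviations of same-numbered mice had correlations of -0.00199, 0.00839 and 0.00891, and those of differently numbered mice -0.041 to 0.0296. With 3 same-numbered pairs, whether the number pairs the mice cannot be told. The count of genes of the set lower at an unadjusted p under 0.05 was 1 as reported and 2 without the trend (background 6.13%). Without mice 3 and 4 it was 0 (background 4.89%), with 1 higher (background 3.41%). With 1 animal left out it was 0 to 2 (background 4.61% to 7.22%). The higher count was 0 without the trend and in each fit with 1 animal left out. Groups did not overlap, lower, for 2 genes with arrays centred on their medians, 4 without mice 3 and 4 and 1 to 3 with 1 animal left out, and, higher, for 1 gene after quantile normalization again, 2 without mice 3 and 4 and 0 to 1 with 1 animal left out. With fewer animals groups part more easily. The share of all tested genes without overlap was not counted under these settings, so these counts are not a result about the set. The median of the set was -0.118 to -0.0266 with 1 animal left out.

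Sign changes among tested genes arose where the reported difference was small. Leaving out 1 animal gave -0.12 to 0.0615 for Irf9, -0.13 to 0.0475 for Ifih1, -0.0319 to 0.15 for Bst2, -0.14 to 0.00907 for Gbp2, -0.0051 to 0.0412 for H2-T23 and -0.15 to 0.19 for Cxcl10. With array weights Irf9 was 0.00343, Bst2 -0.041 and Cxcl10 0.0894. With the replicate block Ifih1 was 0.0626, Ifit2 0.00141, Gbp2 0.0263 and H2-T23 -0.015. H2-T23 was -0.0325 with the pools as samples and -0.0311 without mice 3 and 4. The cause was not tested. Dim probe sets near 4.32 limit what can be said of the sensors, Isg15, the Oas genes and Psmb8.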

Other observations

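Of the interferon genes, Ifna16 had the largest difference and was not tested, as it exceeded the filter level of 4.32 in tumour-bearing mice 1 and 5 alone. It read 4.72, 3.98, 3.67, 3.91 and 4.67 in tumour-bearing mice, against 3.84, 3.94 and 3.17 in controls, and 3.89 in the tumour-bearing pool against 3.80 in the control pool. It was chosen after its values were seen, and its sequence is close to those of other interferon alpha genes. The probe set shared by Oas1a and Oas1g averaged 3.91 ± 0.13 in tumour-bearing mice (SD, n = 5) and 3.76 ± 0.22 in controls (SD, n = 3), below the filter level in each animal, and its pools differed by -0.33.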
